A study of Mus musculus with 3 samples.

Results

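Caveolae genes were followed through the single-cell libraries of Peyer's patch (PP) endothelium. The group was fixed by symbol and held 7 of the 31053 genes in the count files, namely *Cav1*, *Cav2*, *Cavin1*, *Cavin2*, *Cavin3*, *Ehd2* and *Pacsin2*, and all 7 were detected. The 3 libraries were made by droplet 3′ sequencing in which each captured transcript is counted by a unique molecular identifier (UMI). The 1 control library carries the title WT and the strain C57BL/6. The 2 EC-iCOUP_OE libraries, replicates 1 and 2, carry the strain CDH5(PAC)CreERT2;COUP-TFIIOE/OE, in which tamoxifen-activated Cre under the *Cdh5* promoter switches on COUP-TFII (gene *Nr2f2*) in endothelium. Mice of both genotypes were 6 to 10 weeks old and had received tamoxifen 14 to 19 days earlier, and the study's methods give Cre-negative littermates as controls. For its single-cell data the study describes cohorts of both sexes, handled together and told apart after sequencing, from 2 separate experiments. Neither the number of mice nor the day is given for a library. The labels do not say whether the 2 EC-iCOUP_OE libraries came from separate mice. P values below measure only how differences between cell classes vary over the 3 libraries, pooled over the classes of a fit. They need not measure variation between mice.

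Caveolae are flask-shaped pits of the plasma membrane that are especially dense in capillary endothelium, where they serve transcytosis, buffer membrane tension and hold signalling proteins. Caveolins insert into the membrane and build the coat, with caveolin 1 required for caveolae outside striated muscle and caveolin 2 assembling with it. Cavins bind the coat from the cytoplasm: cavin 1 is required for caveolae in all cells, while cavin 2 and cavin 3 shape the coat and depend on the tissue. EHD2 is an ATPase that holds the neck of the pit, and PACSIN2 (syndapin 2) is a membrane-curving protein that acts during assembly.

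On GRCm38, the assembly of mm10, *Cav1* (ENSMUSG00000007655) lies on chromosome 6 from 17306335 to 17341452. *Cav2* (ENSMUSG00000000058) lies beside it from 17281185 to 17289115 on the same strand, with 25150 bases between the start sites. *Cavin1* (ENSMUSG00000004044) spans 100956733 to 100970887 of chromosome 11, *Cavin2* (ENSMUSG00000045954) 51289126 to 51302960 of chromosome 1 and *Pacsin2* (ENSMUSG00000016664) 83375607 to 83464606 of chromosome 15. *Cavin3* (ENSMUSG00000037060), at 105480083 to 105482300, and *Ehd2* (ENSMUSG00000074364), at 15946958 to 15967567, both lie on chromosome 7. The 250 bases before the start of *Cav1* (chr6:17306085-17306334), *Cav2* (chr6:17280935-17281184) and *Cavin2* (chr1:51288876-51289125) are shown because these genes were low together in fibroblasts and in high endothelial cells. The sequences are from RefSeq on GRCm38.p6, plus strand, with matches to the motifs searched in capitals.

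Cav1: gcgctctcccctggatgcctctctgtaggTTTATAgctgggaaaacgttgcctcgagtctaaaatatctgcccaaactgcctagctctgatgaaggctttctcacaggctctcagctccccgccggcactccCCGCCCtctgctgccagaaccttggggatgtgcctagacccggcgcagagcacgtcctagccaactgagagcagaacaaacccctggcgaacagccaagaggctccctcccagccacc

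Cav2: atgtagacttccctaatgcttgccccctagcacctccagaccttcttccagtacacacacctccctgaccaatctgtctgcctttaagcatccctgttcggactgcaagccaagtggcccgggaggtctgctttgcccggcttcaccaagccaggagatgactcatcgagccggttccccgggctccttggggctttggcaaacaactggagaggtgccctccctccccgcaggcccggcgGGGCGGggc

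Cavin2: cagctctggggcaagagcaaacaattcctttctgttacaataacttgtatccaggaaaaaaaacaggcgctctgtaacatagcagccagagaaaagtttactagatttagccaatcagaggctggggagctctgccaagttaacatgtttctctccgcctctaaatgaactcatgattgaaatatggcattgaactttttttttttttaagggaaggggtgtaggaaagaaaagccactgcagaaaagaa

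The motifs searched, on both strands and with no mismatch, were AGGTCA, a half-site that binds nuclear receptors such as COUP-TFII and occurs in 14.0% of 32851 promoter windows of this length, CACGTG (6.02%), GGGCGG (32.7%), CGGAAG (13.6%), TATAAA (12.4%) and the CArG box (1.47%). The *Cav1* window held 1 GGGCGG and 1 TATAAA, both on the minus strand, and the *Cav2* window held 1 GGGCGG. The *Cavin2* window held none of these, and its GC content was 40.4% against 59.6% for *Cav1* and 62.0% for *Cav2*. None of the 3 windows held AGGTCA. The study's own COUP-TFII motif, GGTC(A/G), is shorter and was not among those searched. The printed *Cav2* window holds a match to it on the minus strand (tgacc). Among the other windows found for 6 of the 7 genes, AGGTCA was in 1 of 3 at *Pacsin2*. The study's shorter motif also matches in the other *Cav1* window (chr6:17307390-17307639), as ggtca and tgacc, and at *Pacsin2*. These letters describe the windows and say nothing of occupancy.

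The label of all libraries is blood endothelial cells, and this held for only part of the cells. Of 5207, 4562 and 1229 cells used in the control library and in EC-iCOUP_OE replicates 1 and 2, 2418, 3413 and 987 clustered as blood endothelial cells (blood EC) with *Pecam1* and *Cdh5*. The control library also held 2440 fibroblasts, 199 glia and 19 *Actg2*+ smooth muscle cells, whereas the EC-iCOUP_OE libraries held 898 and 126 lymphatic EC and at most 7 fibroblasts each. Mural cells (pericytes and vascular smooth muscle, with *Rgs5* and *Notch3*) numbered 102, 196 and 90. The files held 17341398, 17417260 and 3548983 UMIs. The control library shared 12 barcodes with replicate 2 and 0 with replicate 1, and replicates 1 and 2 shared 0. Whether the 3 libraries were made with the same kit and barcode set was not tested. Levels are UMIs of a gene summed over the cells of a class and library, per 1000000 UMIs of that sum (CPM), with exact Poisson 95% intervals that cover counting error only. A lower CPM can reflect fewer expressing cells or less of the RNA in each cell, which sums cannot tell apart. The caveolae genes were kept out of the genes used for clustering and naming.

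In blood EC all 7 genes were detected in every library, with the cavins closest between libraries and *Cav2* and *Ehd2* furthest apart. *Cav1* stood at 694, 531 and 658 CPM in the control library and EC-iCOUP_OE replicates 1 and 2, and *Cav2* at 214, 237 and 409 CPM. *Cavin1* was at 235, 217 and 234 CPM, *Cavin2* at 504, 496 and 485 CPM and *Cavin3* at 725, 786 and 775 CPM. *Cav2* was thus highest in replicate 2, with its counting interval above those of the other libraries. *Ehd2* was at 128, 195 and 158 CPM and *Pacsin2*, the lowest of the 7 in UMIs, at 44.2, 36.3 and 36.3 CPM. With each cell thinned to 1000 UMIs, *Cav1* was seen in 54.7, 41.3 and 47.1% of blood EC (79.7, 77.4 and 73.2% unthinned). As a gauge of free RNA, it was seen in 1.01% of control glia (95% Clopper-Pearson interval 0.122 to 3.58%) and in 0 of 18 control lymphocyte-like cells, a count that allows up to 18.5%. In EC-iCOUP_OE replicate 1 the share in 30 lymphocyte-like cells was 6.67% (interval 0.818 to 22.1%; 23.3% unthinned), but those cells carried endothelial markers, as given below, and replicate 2 held too few cells for such a gauge. Median depths in the control library were 2114, 1367 and 1471 UMIs in blood EC, glia and lymphocyte-like cells.

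**Figure D1:**
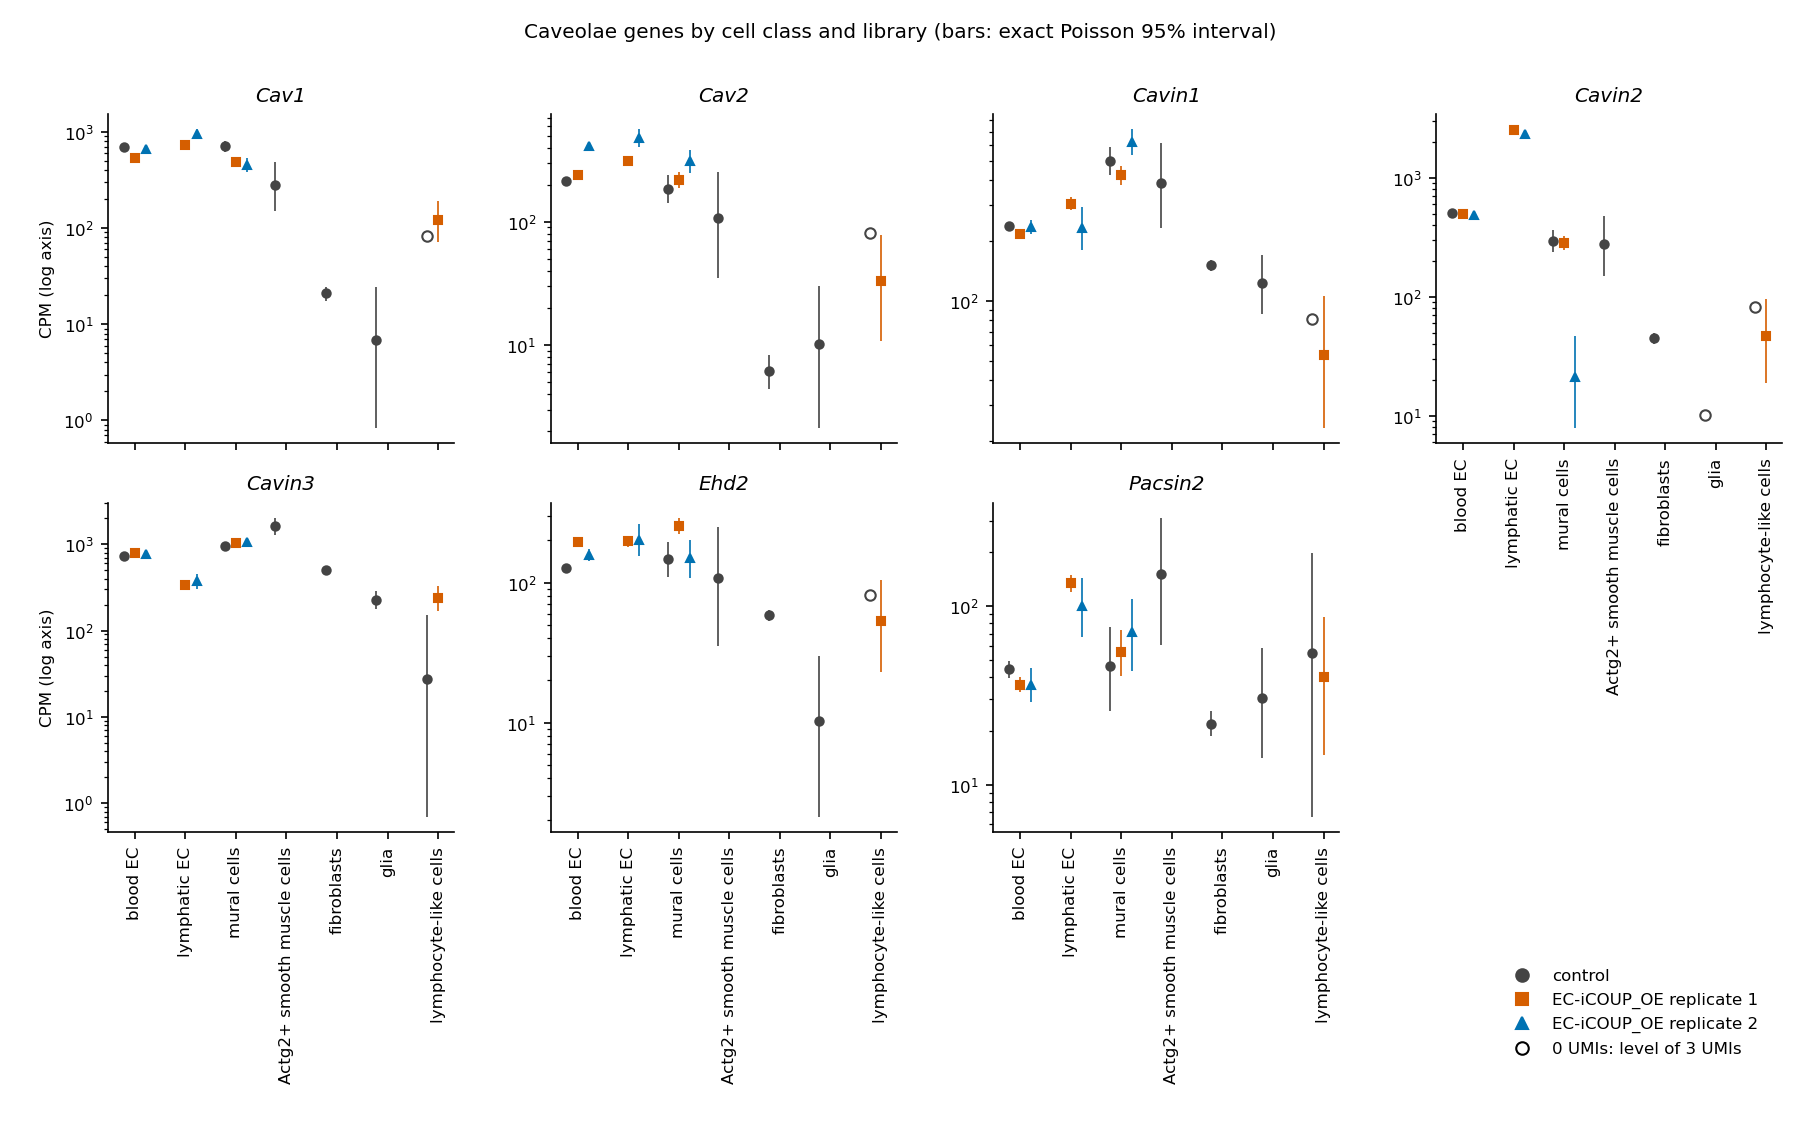
Level of each caveolae gene (CPM, log axis) by broad cell class and library, with exact Poisson 95% intervals; open symbols mark 0 UMIs drawn at the level of 3 UMIs, and only classes of at least 10 cells in a library are drawn. In the control library fibroblasts sit at 20.9 CPM of Cav1 against 694 in blood EC, and lymphatic EC sit at 2508 and 2349 CPM of Cavin2.

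Fibroblasts were low in both caveolins and in cavin 2, while cavin 1 and cavin 3 did not pass the test. In the control library, the only one with enough of these cells, they held 20.9 CPM of *Cav1*, 6.14 CPM of *Cav2* and 44.7 CPM of *Cavin2*. They also held 150.4 CPM of *Cavin1*, 501 CPM of *Cavin3*, 58.3 CPM of *Ehd2* and 22.0 CPM of *Pacsin2*. Classes were compared by edgeR's quasi-likelihood test on the summed counts with library as a block and Benjamini-Hochberg adjustment over 8740 genes. Against blood EC, *Cav1* was lower by a log2 difference of -4.81 ± 0.71 (SE; edgeR adjusted p = 7.9e-05), *Cav2* by -4.91 ± 0.52 (adjusted p = 3.52e-06) and *Cavin2* by -3.60 ± 0.88 (adjusted p = 0.00574). Of all genes tested 9.98% were lower and 15% higher in fibroblasts by the same test, against 3 and 0 of the 7 members, whose median log2 difference was -0.92. *Cavin1* differed by -0.35 ± 0.47 (edgeR adjusted p = 0.7), *Cavin3* by -0.15 ± 0.51 (adjusted p = 0.903), *Ehd2* by -0.92 ± 0.41 (adjusted p = 0.137) and *Pacsin2* by -0.72 ± 0.38 (adjusted p = 0.212), none past the threshold. In the control library itself *Cavin1* (150.4 against 235 CPM) and *Cavin3* (501 against 725 CPM) lay under blood EC with separate counting intervals. The fit rests on 1 fibroblast library, assumed to vary like the other sums. *Cav1* was seen in 2.01% of thinned fibroblasts (interval 1.49 to 2.65%, 5.29% unthinned), close to the share in glia. *Cavin3* was seen in 38.0% of thinned fibroblasts and 19.1% of glia. For *Cavin1* the shares were 14.6 and 12.6%, with overlapping intervals.

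The fibroblasts fell into 4 clusters, and these differed in *Cavin1* more than in *Cavin3*. The largest (1103 cells) was led by *Adamdec1* and left unnamed, 641 cells were reticular-like with *Ccl19* and *Il7*, 599 adventitial-like with *Pi16*, and 97 subepithelial-like with *Wif1* and *Bmp7*. In that order *Cavin1* stood at 203, 78.9, 176 and 52.1 CPM, and *Cavin3* at 504, 441, 594 and 356 CPM. *Cav1* was at 11.7, 21.4, 29.4 and 60.8 CPM, from 14 to 51 UMIs in each cluster. Every cluster therefore lay far under the blood EC level of *Cav1*. With 1 library these values have no replicate.

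Lymphatic EC differed from blood EC most in cavin 2. *Cavin2* stood at 2508 and 2349 CPM in the lymphatic EC of EC-iCOUP_OE replicates 1 and 2, against 496 and 485 CPM in blood EC of the same libraries. The log2 difference was 2.30 ± 0.55 (edgeR adjusted p = 0.00686). *Pacsin2*, at 133 and 99.9 CPM, was also higher, by 1.52 ± 0.30 (edgeR adjusted p = 0.00151). *Cavin3*, at 338 and 372 CPM, was lower, by -1.39 ± 0.41 (edgeR adjusted p = 0.0278). The call was made for 2 members higher and 1 lower, with 8.95% of all genes tested higher and 8.52% lower. *Cav1* (718 and 947 CPM), *Cav2* (311 and 479 CPM), *Cavin1* (306 and 231 CPM) and *Ehd2* (197 and 203 CPM) did not pass the test. In both libraries *Cav1* nevertheless lay above blood EC (531 and 658 CPM) with separate counting intervals. *Cav2* and *Cavin1* did so in replicate 1 only. In thinned cells *Cavin2* was seen in 88.2 and 84.1% of lymphatic EC and 38.6 and 35.4% of blood EC. All lymphatic EC came from the EC-iCOUP_OE libraries, so a lymphatic level without the transgene was not measured. Without replicate 1, which leaves 1 lymphatic library, the log2 differences were 2.69, 1.11 and -1.24 for *Cavin2*, *Pacsin2* and *Cavin3*, and none passed the threshold.

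Mural cells carried more cavin 1 than blood EC, while the caveolins did not pass the test. *Cavin1* stood at 501, 423 and 622 CPM in the control library and EC-iCOUP_OE replicates 1 and 2, above blood EC in each, with a log2 difference of 1.14 ± 0.31 (edgeR adjusted p = 0.0151). *Cavin2* stood at 297, 284 and 21.3 CPM, the last from 6 UMIs, with a difference of -1.54 ± 0.51 (edgeR adjusted p = 0.0455). Those 2 calls compare with 11.9% of all genes higher and 8.08% lower. *Cav1* was at 711, 487 and 452 CPM, *Cav2* at 185, 218 and 309 CPM, *Cavin3* at 958, 1041 and 1060 CPM and *Ehd2* at 148, 254 and 149 CPM, none differing from blood EC past the threshold. In replicate 2 itself *Cav1* (452 against 658 CPM) and *Cav2* (309 against 409 CPM) lay under blood EC with separate counting intervals. In the other libraries the intervals of both caveolins overlapped those of blood EC. By the same reading *Cavin3* lay above blood EC with separate intervals in every library. *Ehd2* and *Pacsin2* did so in replicate 1 only. Without replicate 2 the *Cavin2* difference was -0.87 (edgeR adjusted p = 0.201) and that of *Cavin1* 0.95 (0.0689), and without replicate 1 they were -2.34 (0.123) and 1.20 (0.0935).

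The replicate in which *Cavin2* was low in mural cells was also the one with the fewest endothelial transcripts. The 8 blood endothelial markers summed to 2821, 2740 and 519 CPM in mural cells of the control library and replicates 1 and 2, with all 8 detected in each, and *Pecam1* stood at 451, 342 and 53.4 CPM. The part of these transcripts in the mural *Cavin2* level was not tested. In replicate 2 itself, *Cav1* stood at 452 CPM, *Cavin1* at 622 CPM and *Cavin3* at 1060 CPM beside those 21.3 CPM of *Cavin2*. *Cav1* was also lowest there, by less. *Ehd2* was seen in 7.78% of thinned cells there against 17.6 and 20.9%, but its level of 149 CPM was close to the 148 CPM of the control library. *Cav2*, *Cavin1*, *Cavin3* and *Pacsin2* were highest in replicate 2.

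Glia, from the control library only, were low in the 3 genes that were low in fibroblasts and in *Ehd2*. *Cavin2* was at 0 UMIs in 199 cells, and *Cav1*, *Cav2* and *Ehd2* were lower than in blood EC, with *Cav1* at 6.82 CPM (2 UMIs; edgeR adjusted p = 0.000177). In all 4 members were lower and none higher, with 8.67 and 10.1% of all genes. In lymphocyte-like cells 6 members were lower and none higher, with 3.31 and 4.12% of all genes. That class held 18 and 30 cells, and its 30 cells from replicate 1 carried 1593 CPM of blood endothelial markers while its control cells carried 3099 CPM of fibroblast markers, whose part was not tested. None of the 7 passed the test in the 19 *Actg2*+ smooth muscle cells, against 3.27% of all genes higher and 0.847% lower, and 2 of the 7 had an unadjusted p under 0.05.

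**Figure D2:**
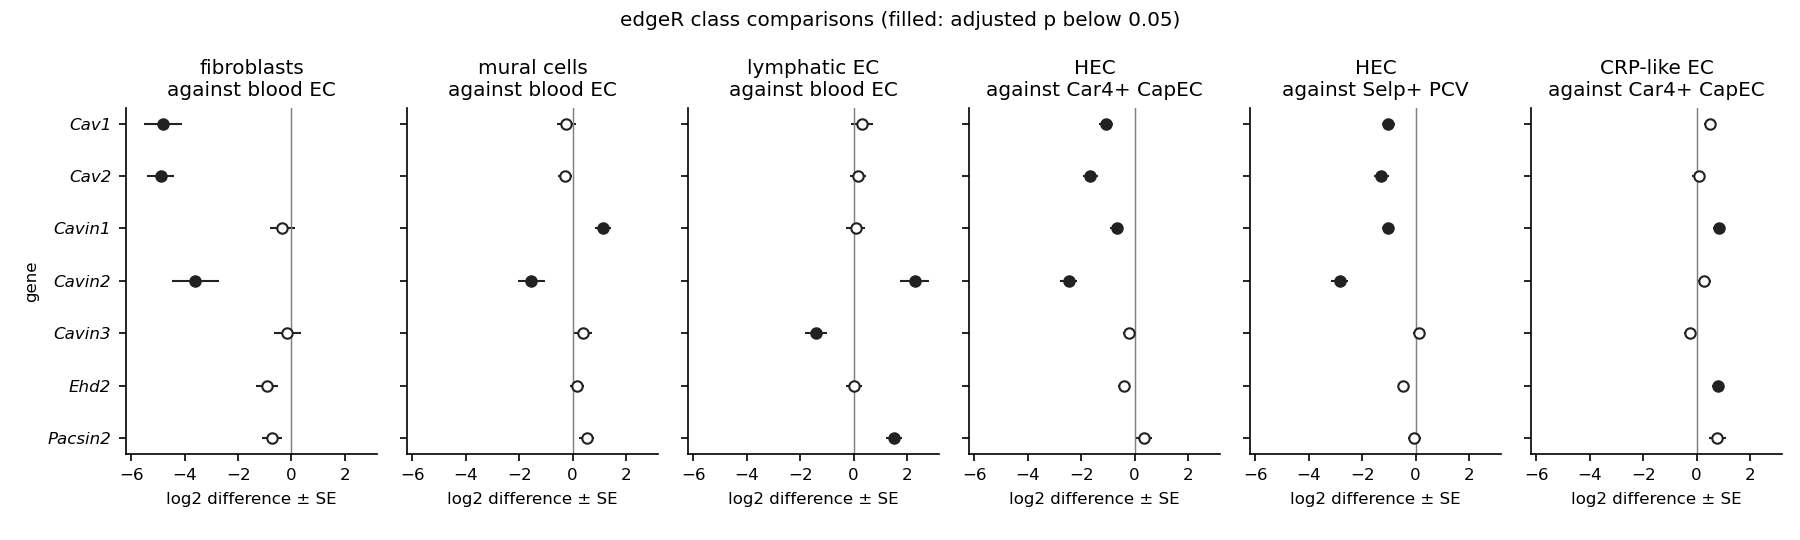
Log2 differences (± SE, edgeR) of the 7 caveolae genes for 6 class comparisons; filled symbols have an adjusted p under 0.05. Cav1, Cav2 and Cavin2 are filled and negative in fibroblasts and in HEC against both reference subsets, and Cavin2 is positive in lymphatic EC at 2.30.

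Blood EC were split into 12 subsets. They comprised *Car4*+ capillary EC (CapEC), whose leading genes were haemoglobin transcripts followed by *Car4*, and *Tgtp2*+ CapEC, led by *Tgtp2*, *Rgcc* and *Igf1*. A further subset resembled the capillary resident angiogenic progenitors of the study (CRP-like, with *Apln* and *Pgf*). There were *Gkn3*+ arterial EC and 2 arterial-like subsets led by *Bmp2* and by *Cyp1a1* and *Enpp6*, and postcapillary venule EC (PCV) in a *Selp*+ and a *Masp1*+ subset. High endothelial cells (HEC), which line the venules through which lymphocytes enter, had *Glycam1* and *Enpp2*. Dividing EC had *Mki67* and *Top2a*, and 2 subsets led by *Prom1* and by *Colec12* stayed unnamed. The arterial names come from marker genes and differ from the study's cell labels, held in part. In *Gkn3*+ EC these gave 49 cells as PP CapEC and 11 as arterial. In *Bmp2*+ and *Enpp6*+ EC they gave 71 and 303 cells as PP CapEC and 0 as arterial. In the unnamed *Colec12*+ EC they gave 71 cells as HEC, 64 as PP CapEC, 9 as PCV and 2 as CRP. In the subset named HEC they gave 42 cells as HEC, so cells with that label lay in both subsets. HEC below means the named subset only. The study found mature *Gkn3*+ arterial EC in its WT cohort only.

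**Figure D3:**
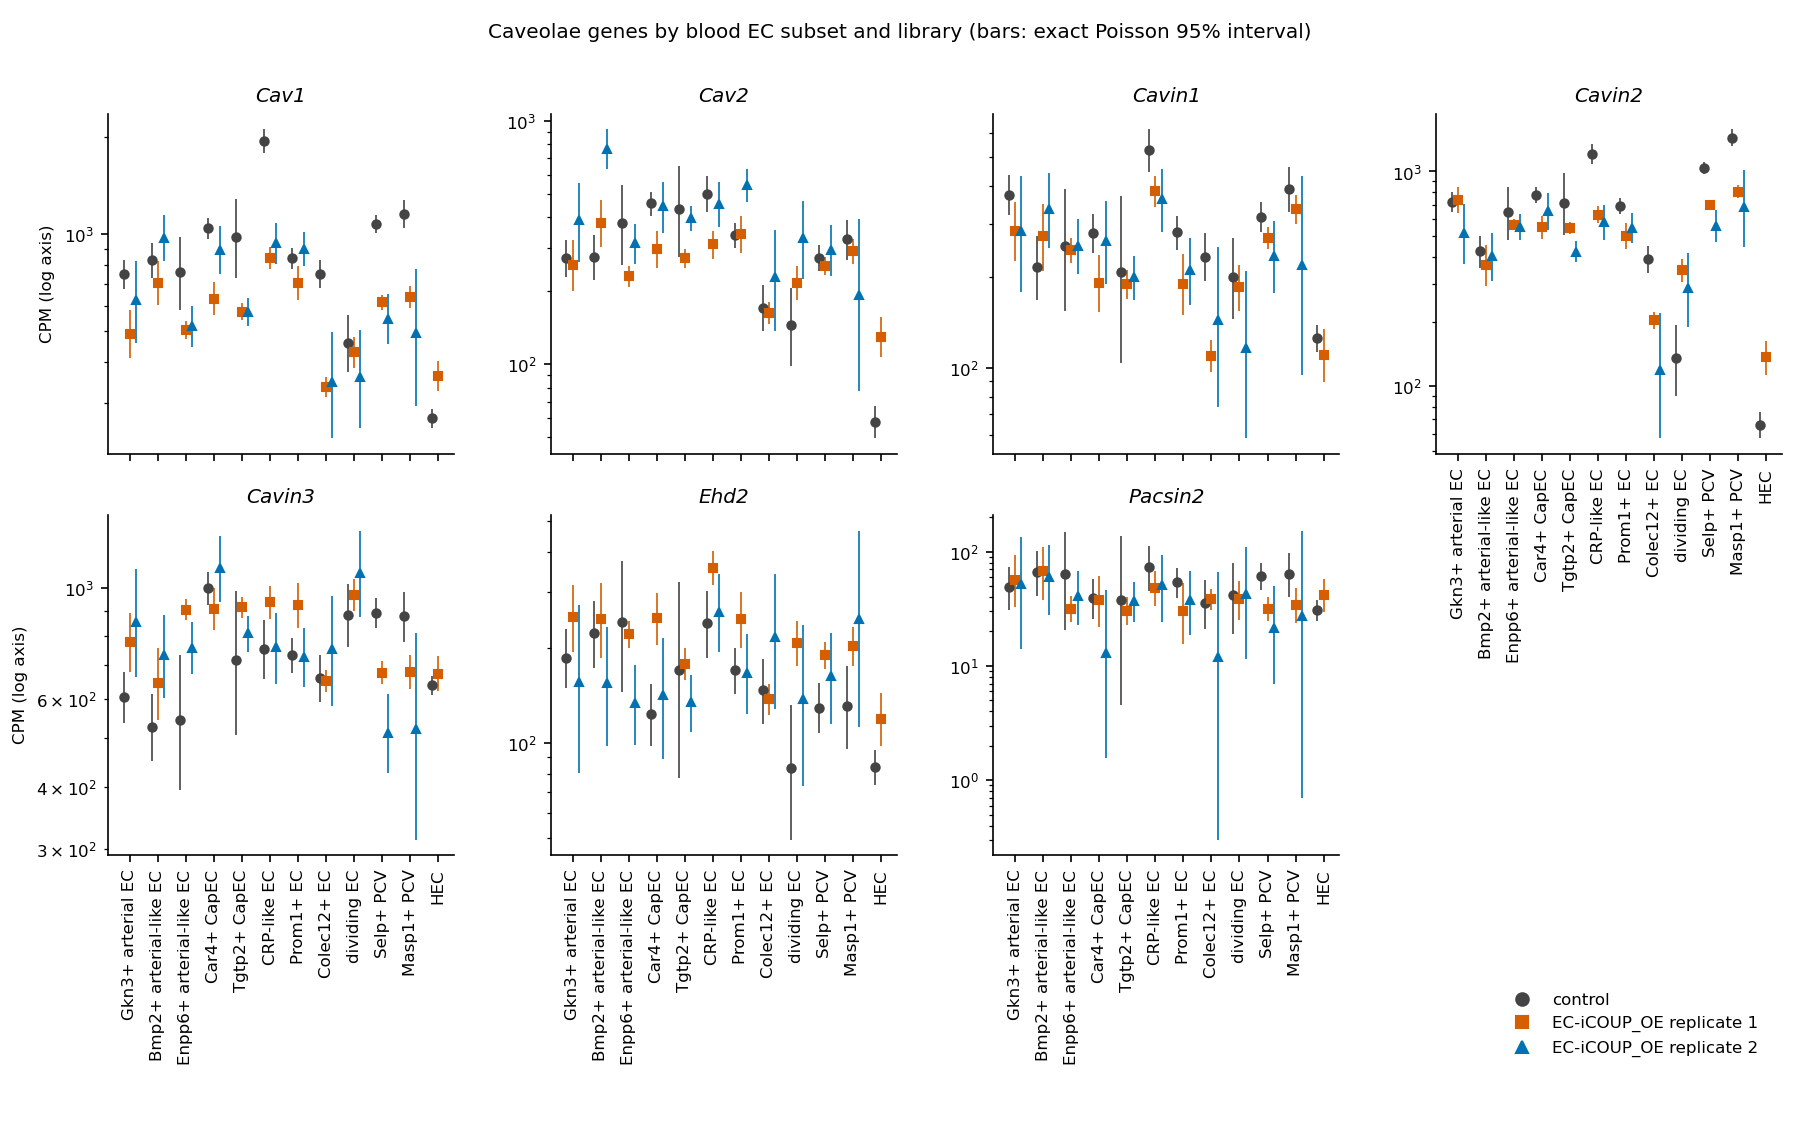
Level of each caveolae gene (CPM, log axis) by blood EC subset and library, with exact Poisson 95% intervals; the 7 HEC of EC-iCOUP_OE replicate 2 are left out. HEC are lowest for Cav2 and Cavin2, at 57.7 and 66.0 CPM in the control library, and the CRP-like point of the control library is highest for Cav1, at 1940.5 CPM.

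HEC held low relative levels of the caveolins, cavin 1 and cavin 2. In the control library they were the lowest of the 12 subsets for these 4 genes, and in EC-iCOUP_OE replicate 1 the lowest for *Cav2* and *Cavin2*, while *Colec12*+ EC lay at or under them for *Cav1* and *Cavin1*. In those libraries, in that order, *Cavin2* stood at 66.0 and 136 CPM in HEC, against 1041 and 699 CPM in *Selp*+ PCV and 780 and 550.4 CPM in *Car4*+ CapEC. *Cav1* stood at 268 and 363 CPM against 1073 and 615 CPM in *Selp*+ PCV, and *Cav2* at 57.7 and 129 CPM against 273 and 253 CPM. *Cavin1* was at 125 and 110.2 CPM against 316 and 270.1 CPM. In both libraries HEC lay under both reference subsets for these 4 genes. *Cavin3* did not follow them, at 638 and 673 CPM in HEC against 891 and 676 CPM in *Selp*+ PCV. *Ehd2* stood at 83.9 and 119 CPM, and *Pacsin2* at 30.8 and 41.6 CPM. The 7 HEC of replicate 2 did not enter the fit.

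Against *Car4*+ CapEC the log2 differences were -2.47 ± 0.32 for *Cavin2* (edgeR adjusted p = 1.17e-07), -1.66 ± 0.28 for *Cav2* (9.58e-06), -1.06 ± 0.25 for *Cav1* (0.0012) and -0.67 ± 0.23 for *Cavin1* (0.0259). Thus 4 members were lower and none higher, with 12.8 and 14.5% of 8079 genes. Against *Selp*+ PCV, a comparison added after the levels had been seen, they were -2.83 ± 0.32 for *Cavin2* (edgeR adjusted p = 9.64e-09), -1.28 ± 0.27 for *Cav2* (0.000432), -1.02 ± 0.25 for *Cav1* (0.00234) and -1.04 ± 0.22 for *Cavin1* (0.000552), with 10.7% of all genes lower and 10% higher. *Cavin3* differed by -0.22 ± 0.22 and 0.13 ± 0.22 (edgeR adjusted p = 0.515 and 0.743). The *Cavin1* call against *Car4*+ CapEC was lost when any 1 library was left out (edgeR adjusted p 0.0852 to 0.169). Without the control library *Cav1* against *Selp*+ PCV was -0.57 (0.0911), and without replicate 1 *Cavin1* was -0.93 (0.0924).

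The relative levels have to be read beside the depth of HEC. Their medians were 7269 and 6684.5 UMIs per cell in the control library and replicate 1, against 1360.5 and 1870 in *Car4*+ CapEC and 3069.5 and 3740.5 in *Selp*+ PCV. Counted per cell, HEC held 1.96 and 2.74 UMIs of *Cav1*, more than the 1.55 and 1.26 of *Car4*+ CapEC, and 0.915 and 0.831 UMIs of *Cavin1* against 0.417 and 0.384. *Cavin2* stayed lower in HEC on this scale, at 0.482 and 1.03 UMIs per cell against 1.16 and 1.10 in *Car4*+ CapEC and 3.45 and 3.02 in *Selp*+ PCV. *Cav2* was at 0.421 and 0.975 against 0.682 and 0.594 UMIs per cell in *Car4*+ CapEC, lower in the control library and higher in replicate 1. Against *Selp*+ PCV, *Cav1* was lower per cell in the control library (1.96 against 3.55) but not in replicate 1 (2.74 against 2.66). *Cav2* (0.421 and 0.975 against 0.903 and 1.09) and *Cavin1* (0.915 and 0.831 against 1.05 and 1.17) were lower per cell than in *Selp*+ PCV in both libraries. *Cavin2* was therefore lower on both scales against both subsets in both libraries, though by little per cell against *Car4*+ CapEC in replicate 1, and the differences of *Cav1* and *Cavin1* against *Car4*+ CapEC were present as a share of the cell's RNA and turned round per cell. Per-cell counts mix RNA content with capture, and these were not separated.

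The 2 other subsets with several lower members were also deeper than *Car4*+ CapEC. That trait was not particular to them. *Car4*+ CapEC had the lowest median of all subsets in the control library and replicate 2, at 1360.5 and 1757 UMIs. *Selp*+ PCV, with no member called against *Car4*+ CapEC, had medians of 3069.5, 3740.5 and 2696 UMIs. In *Colec12*+ EC *Cavin2* (390, 203 and 120 CPM), *Cav2* (170.2, 162 and 227 CPM) and *Cav1* (752, 336 and 347 CPM) were lower than in *Car4*+ CapEC by -1.33, -1.04 and -0.77 on the log2 scale (edgeR adjusted p = 0.000558, 0.00253 and 0.018). In dividing EC the same genes were lower by -1.24, -0.79 and -0.89 (edgeR adjusted p = 0.00119, 0.0232 and 0.00438). The shares of all genes lower were 5.85 and 8.26%, and higher 6.58 and 11.8%, with no member higher in either subset. Per cell, dividing EC held more UMIs than *Car4*+ CapEC of *Cavin2* (1.32, 1.83 and 1.35 against 1.16, 1.10 and 1.26) and of *Cav2* (1.41, 1.14 and 1.55 against 0.682, 0.594 and 0.852), so that these directions turned round. The same was seen for *Cav1* in dividing EC in the control library and replicate 1 (4.5 and 2.28 against 1.55 and 1.26) and in *Colec12*+ EC in those libraries (2.71 and 1.79). *Cavin2* in *Colec12*+ EC was at 1.41, 1.08 and 0.40 UMIs per cell, higher than in *Car4*+ CapEC in the control library only, and *Cav2* at 0.614, 0.862 and 0.76, higher in replicate 1 only. Median depth was 3042.5, 4890.5 and 2793 UMIs in *Colec12*+ EC and 10187, 4416.5 and 4205 in dividing EC. *Cav1* in *Colec12*+ EC lost the call without replicate 1 (-0.75) or replicate 2 (-0.56), and there *Cavin2* lost it without replicate 2 (-1.10). In dividing EC *Cav2* lost it without the control library (-0.43) or replicate 1 (-0.98), and *Cav1* without replicate 2 (-0.73).

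CRP-like EC lay at the other end. Their cluster was mixed by the study's cell labels, held for part of the cells. These gave 66 cells as PP CapEC, 42 as capillary EC of the lamina propria and 39 as CRP. *Cavin1* stood at 526, 386 and 362 CPM, above *Car4*+ CapEC (280, 192 and 264 CPM) in every library, by 0.84 ± 0.21 (edgeR adjusted p = 0.0106). *Ehd2* stood at 239, 357 and 260 CPM against 123, 247 and 142 CPM, higher by 0.78 ± 0.20 (edgeR adjusted p = 0.0119). These 2 members were higher and none lower, with 2.67 and 1.82% of all genes. *Cav1* reached 1940.5 CPM in the control library, 844 and 938 CPM in the others, a difference of 0.51 ± 0.22 (edgeR adjusted p = 0.24). The *Ehd2* call was lost when any 1 library was left out (0.66 to 0.94) and that of *Cavin1* without replicate 1 (0.72). Both were also lost at clustering resolution 1.6, at 0.57 for *Cavin1* (edgeR adjusted p = 0.118) and 0.52 for *Ehd2* (0.17), and there *Pacsin2* was called instead.

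Capillary EC of the lamina propria (LP CapEC) separated only at a finer clustering (resolution 1.6). There the study's cell labels, held in part, gave that name most often in a cluster of 99, 106 and 40 cells. At resolution 1 the blood EC with this label lay mostly in the CRP-like subset. The LP CapEC and CRP-like results may therefore rest in part on the same cells. Against the *Car4*+ CapEC of that clustering, *Cavin1* was higher by 1.13 ± 0.21 (edgeR adjusted p = 0.000416), *Ehd2* by 1.06 ± 0.21 (0.000902) and *Cav1* by 0.76 ± 0.21 (0.0305), with 1.94% of 7850 genes higher and 1.22% lower. Their levels were 599, 467 and 537 CPM for *Cavin1*, 288, 425 and 373 CPM for *Ehd2* and 2256, 997 and 1214 CPM for *Cav1*. *Cavin2*, at 1629.5, 905 and 910.2 CPM, differed by 0.75 ± 0.27 (edgeR adjusted p = 0.151).

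In the other blood EC subsets few members were called against *Car4*+ CapEC. In *Bmp2*+ arterial-like EC *Cavin3* (526, 644 and 732 CPM) was lower by -0.62 ± 0.20 (edgeR adjusted p = 0.0497). It was the only member called there, with 3.92% of all genes lower and 4.99% higher. The call was lost when any 1 library was left out. *Pacsin2* (21, 15 and 9 UMIs) and *Cavin2* differed by more in that subset without passing the threshold. Their differences were 0.97 ± 0.33 (edgeR adjusted p = 0.057) and -0.68 ± 0.28 (0.135). In *Gkn3*+ arterial, *Enpp6*+ arterial-like, *Prom1*+, *Tgtp2*+, *Selp*+ and *Masp1*+ EC no member was called, while 5.03, 3.37, 2.1, 1.4, 8.38 and 5.17% of all genes were higher and 3.43, 2.71, 0.681, 0.545, 5.94 and 4.52% lower. *Masp1*+ PCV had the highest subset level of *Cavin2* in the control library, 1437 CPM, but differed from *Car4*+ CapEC by 0.60 ± 0.27 (edgeR adjusted p = 0.183). The unadjusted p was under 0.05 for 3 members in *Masp1*+ PCV, 1 each in *Gkn3*+ and *Enpp6*+ EC, and 0 in the other 3.

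The make-up of the cavin pool set the classes apart on a scale without library size. *Cavin2* supplied 79.6 and 79.6% of all cavin UMIs (*Cavin1*, *Cavin2* and *Cavin3*) in lymphatic EC of replicates 1 and 2, against 34.4, 33.1 and 32.5% in blood EC of the 3 libraries. It supplied 46.3, 42.5 and 42.8% in *Selp*+ PCV but 7.96% (Clopper-Pearson interval 6.93 to 9.09%) and 14.8% (12.4 to 17.4%) in HEC. In fibroblasts it was 6.42% and in glia 0 of 103 UMIs, which allows up to 3.52%. Lymphatic EC lay above *Selp*+ PCV in both libraries that held them, *Selp*+ PCV above blood EC in all 3, and blood EC above HEC in both that were compared. Fibroblast and HEC intervals overlapped in the control library (5.75 to 7.15% for fibroblasts). *Cav2* made up 23.6, 30.9 and 38.3% of caveolin UMIs in blood EC and 20.7, 31.0 and 40.7% in mural cells, with the control library lowest and replicate 2 highest in both.

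**Figure D4:**
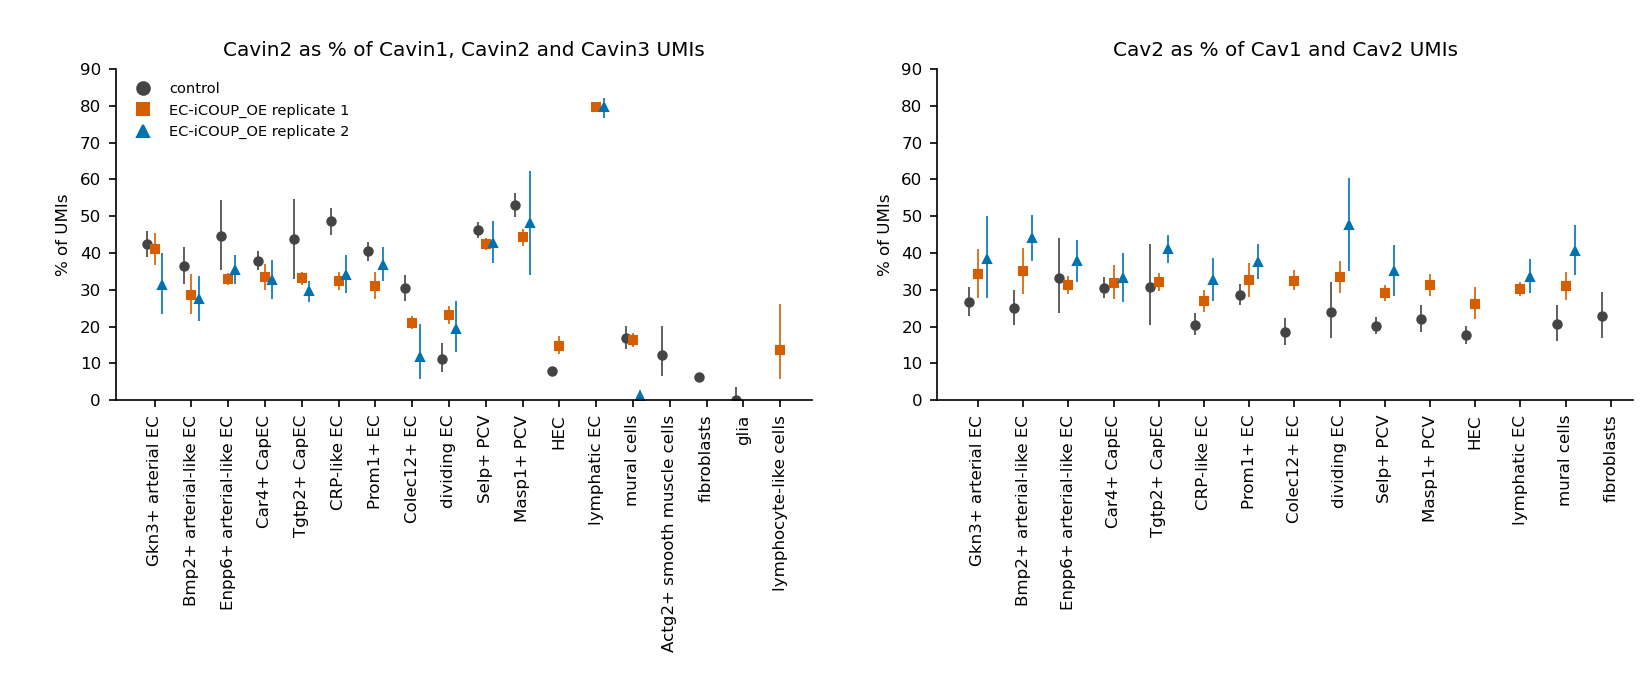
Share of Cavin2 among cavin UMIs (left) and of Cav2 among caveolin UMIs (right), in percent, by class and library with Clopper-Pearson 95% intervals; sums under 50 UMIs are left out. Lymphatic EC stand at 79.6% Cavin2, HEC at 7.96 and 14.8%.

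EC-iCOUP_OE and control libraries were then compared to ask what COUP-TFII overexpression goes with in each class. The targeted gene followed the labels, *Nr2f2* being at 115 CPM in control blood EC and at 1694 and 1164 CPM in EC-iCOUP_OE replicates 1 and 2. No test across genes was run on 2 libraries against 1, and genotype, strain and library cannot be told apart. The size rule therefore asked for a change of 2-fold or more in the same direction in each EC-iCOUP_OE library, and a gene that met it is given as called.

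No caveolae gene was called in blood EC as a whole, where 4.64% of genes were called higher and 2.44% lower. The log2 ratios of replicates 1 and 2 were -0.39 and -0.08 for *Cav1*, and -0.02 and -0.05 for *Cavin2*. HEC supplied 39.2% of blood EC UMIs in the control library but 7.04 and 1.14% in replicates 1 and 2. With every cell thinned to 1000 UMIs, so that each cell weighs the same, the mean ratios moved to -0.54 for *Cav1* and -0.49 for *Cavin2*. The median over the members was -0.02 and 0.00, against 0.16 and 0.02 over all genes. No member was called in mural cells either (3.29% of genes higher, 1.77% lower), where *Cav1* ratios were -0.55 and -0.65.

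Within subsets *Cav1* was lower in both EC-iCOUP_OE libraries in 9 of the 11 that could be compared, and 2 of these were called. Between 22.8 and 41.9% of genes were lower in both libraries in a subset, and of 960 genes that passed the filter in all 11 subsets, 14.0% were lower in both in 9 or more, so that such a count is not particular to *Cav1*. In CRP-like EC it stood at 1940.5 CPM in the control library and 844 and 938 CPM in replicates 1 and 2, log2 ratios of -1.20 (exact interval -1.37 to -1.03) and -1.05 (-1.30 to -0.81). In *Colec12*+ EC it stood at 752, 336 and 347 CPM, ratios of -1.16 (-1.34 to -0.98) and -1.12 (-1.71 to -0.57). The 2 libraries lay close together and apart from the control library in both subsets, of whose genes 2.79 and 1.87% were called lower and 5.82 and 5.79% higher. By the study's account its male WT mice lacked CRP. The part of sex, or of the mix of labels in the CRP-like subset, in the *Cav1* ratios was not tested. Scaled by TMM, the trimmed mean of edgeR, the CRP-like ratios were -1.14 and -0.95, short of the call, and those of *Colec12*+ EC -1.17 and -1.28. At clustering resolution 1.6 neither was called, with ratios of -0.96 and -0.91 in CRP-like and -0.91 and -0.58 in *Colec12*+ EC. *Masp1*+ PCV (1155, 639 and 493 CPM) and *Selp*+ PCV (1073, 615 and 547 CPM) lay just inside 2-fold in at least 1 library, with ratios of -0.85 and -1.23 and of -0.80 and -0.97. Both counting intervals were below 0 in 6 subsets and above 0 in none. How many of all genes have such intervals was not counted. The median over subsets of the mean ratio was -0.57, and the count of 9 stayed the same with TMM and with cells thinned to 1000 UMIs.

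*Cavin2* was also lower in both libraries in 9 of 11 subsets (8 with TMM or with thinned cells), with both intervals below 0 in 5. That count of intervals, too, has no share over all genes beside it. In CRP-like EC it fell short of the call, at 1211, 630.2 and 581 CPM with ratios of -0.94 and -1.06. In dividing EC it went up, at 135, 346 and 286 CPM, with ratios of 1.36 and 1.09, and was called, as were 9.96% of genes higher and 1.68% lower there. That control sum held 29 *Cavin2* UMIs in 22 cells, and per cell the values were 1.32, 1.83 and 1.35 UMIs. Median depth there was 10187, 4416.5 and 4205 UMIs, whose part was not tested, and replicate 2 fell short of the call with TMM (0.87) and with thinned cells (0.72). *Cavin1* was lower in both libraries in 9 subsets and *Pacsin2*, which passed the filter in 4 of the 11, in 7, without a call. *Cavin3* was higher in 6 and lower in 2, and *Ehd2* higher in 5 and lower in 1. *Cav2* was higher in 3 and lower in 5, and its median of 0.00 turned to -0.27 with thinned cells. No member was called in the other 8 subsets. In *Bmp2*+, *Car4*+, *Enpp6*+, *Gkn3*+, *Masp1*+, *Prom1*+, *Selp*+ and *Tgtp2*+ EC, in that order, 3.32, 3.28, 13.3, 2.28, 3.16, 1.91, 3.45 and 16.3% of genes were called higher and 3.77, 2.73, 6.06, 2.72, 0.838, 2.2, 1.59 and 5.39% lower. The subset named HEC could not be compared because replicate 2 held 7 of its cells. In the LP CapEC of the finer clustering the *Cav1* ratios were -1.18 and -0.89 and those of *Cavin2* -0.85 and -0.84, neither called. Every ratio shares the 1 control library, so subsets are not independent of each other.

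**Figure D5:**
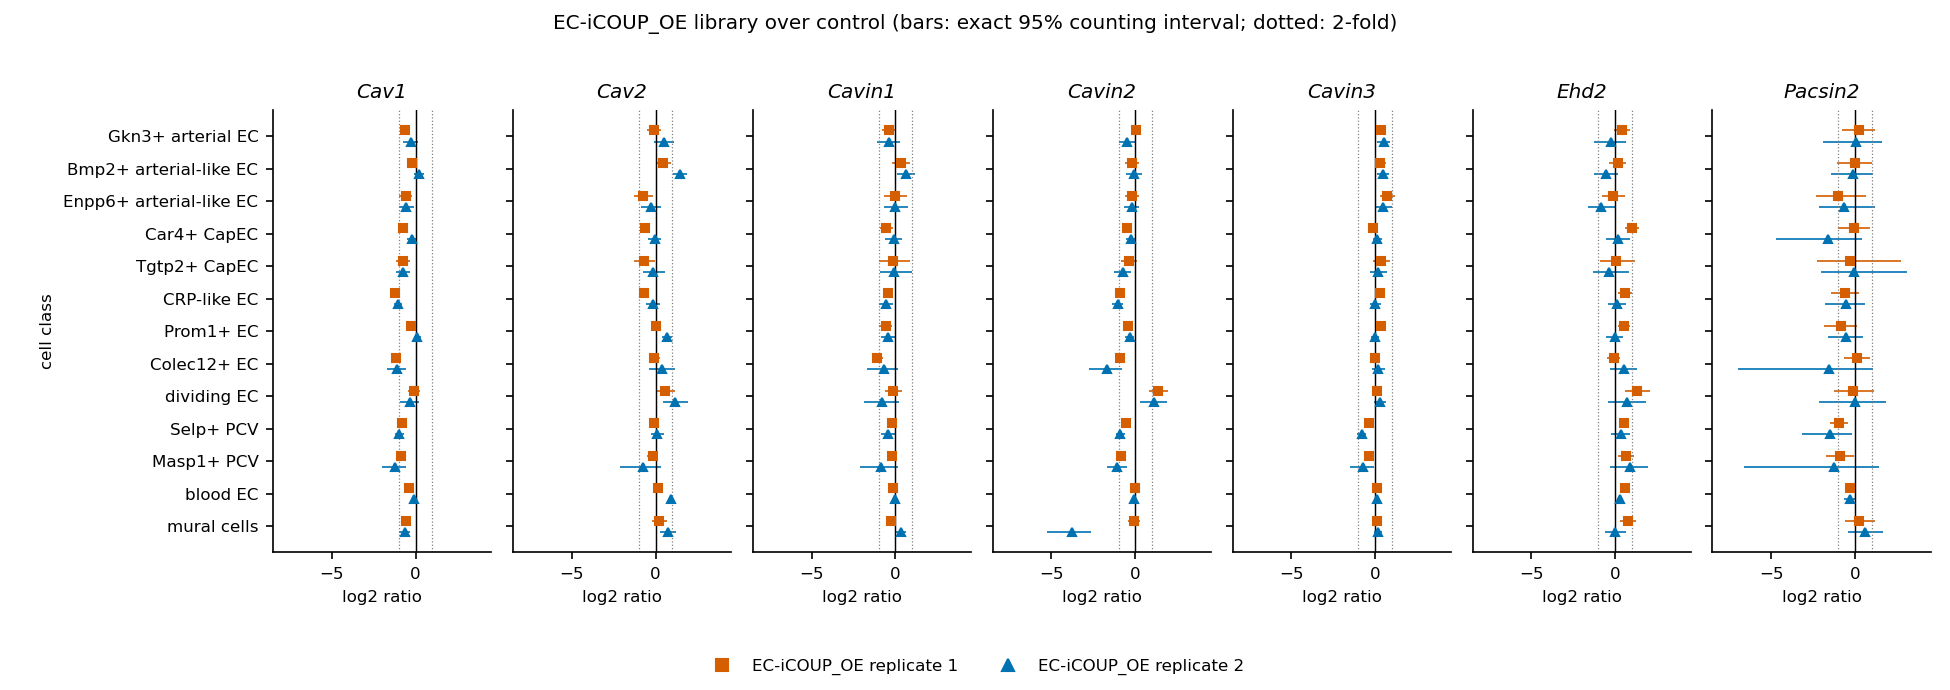
Log2 ratio of each EC-iCOUP_OE library to the control library for the 7 caveolae genes by class, with exact 95% counting intervals; dotted lines mark 2-fold. Cav1 points lie left of 0 in both libraries in 9 of 11 subsets, and mural Cavin2 of replicate 2 lies at -3.80.

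A list of 18 further genes of caveolae and caveolar transport was read the same way, and 11 passed the filter of the class comparison. *Ehd4*, a paralogue of *Ehd2* that acts in endocytic recycling, was the only one called between genotypes in blood EC. It stood at 680.2, 278 and 337 CPM, ratios of -1.29 and -1.01, and was also called lower in mural cells (272, 102 and 60.5 CPM) and in 7 subsets, among them *Car4*+ CapEC (1776, 450.1 and 766 CPM) and *Selp*+ PCV (1400.1, 444 and 389 CPM). *Ehd3* was higher in *Car4*+ CapEC (34.6, 203 and 103 CPM) and in *Enpp6*+ EC, where the control held 1 UMI, and lower in dividing EC. *Plvap*, which forms the diaphragm of fenestrae and caveolae, was higher in *Bmp2*+ EC (1128, 2892 and 2439 CPM), and *Ehd1* lower in CRP-like EC (179, 51.0 and 35.7 CPM). The remaining calls, *Dnm3* and *Flna* higher in *Enpp6*+ EC and *Flna* higher and *Dnm2* lower in *Tgtp2*+ CapEC, rest on 1 to 6 control UMIs.

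Between classes, fibroblasts had 2 of these 11 genes higher and 6 lower than blood EC, lymphatic EC 2 and 6, mural cells 3 and 5 and glia 1 and 7. The shares of all genes higher and lower were 15 and 9.98% in fibroblasts, 8.95 and 8.52% in lymphatic EC, 11.9 and 8.08% in mural cells and 10.1 and 8.67% in glia. *Pacsin3*, a paralogue of *Pacsin2*, was higher in all 4, by 3.98, 4.61, 4.77 and 4.74 on the log2 scale (edgeR adjusted p = 0.000171, 5.12e-05, 1.44e-05 and 0.00167). *Ehd1* was higher in fibroblasts (1.75), lymphatic EC (4.21) and mural cells (2.30). *Ehd4*, *Ehd3*, *Scarb1*, *Plvap* and *Dnm3* were lower in all 4. *Nos3*, the endothelial nitric oxide synthase that binds caveolin 1, was lower in fibroblasts and glia, *Acvrl1* in lymphatic EC and glia, and *Flna* was higher in mural cells (3.09). In HEC, 2 of 10 were higher than in *Car4*+ CapEC, *Ehd3* (2.50) and *Flna* (1.12), and 6 lower, *Ehd4* (-2.02), *Acvrl1* (-1.31), *Nos3* (-1.25), *Scarb1* (-0.87), *Dnm2* (-0.67) and *Plvap* (-0.64), with 14.5% of all genes higher and 12.8% lower. LP CapEC had *Ehd1* higher (4.89) and *Ehd4* (-2.18) and *Plvap* (-1.71) lower. These calls were not particular to LP CapEC, and CRP-like EC had the same ones (4.61, -2.02 and -1.74). *Ehd1* was also higher than in *Car4*+ CapEC in *Gkn3*+, *Bmp2*+, *Enpp6*+, *Colec12*+ and dividing EC. *Ehd4* was also lower in *Bmp2*+, *Enpp6*+, *Colec12*+ and dividing EC, and *Plvap* in *Bmp2*+, *Colec12*+ and dividing EC.

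Over 45 sums of a class and library, the gene whose log2(CPM + 10) followed *Cav1* most closely among 9991 was its neighbour *Cav2* (Pearson r = 0.938). Next came *Cracr2b* (0.881), *Fli1* (0.858), *Cavin2* (0.855), *Ehd2* (0.854), *Kank3* (0.847), *Plk2* (0.844), *Esam* (0.834), *Cdh5* (0.830) and *Hspb1* (0.826), so 3 of the first 5 were caveolae genes. *Cavin1* ranked 73 (0.735), *Cavin3* 157 (0.678) and *Pacsin2* 3218 (0.193). *Cavin1* and *Cavin3* were closer to each other (0.766) than *Cavin3* was to *Cavin2* (0.478). These correlations describe sums that share 3 libraries and differ in depth.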

How the data were processed

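Single-cell counts were taken from 3 libraries of Peyer's patch endothelium, 1 control and 2 EC-iCOUP_OE. The authors aligned reads to mm10 with Cell Ranger 3.0.2 and deposited filtered matrices of UMI counts per gene and cell; per the file headers replicate 1 was written by version 3.1.0. The sources name a Chromium v3 platform with a v2 kit. The Cre and TdTomato rows held 0 UMIs where present, so the targeted gene *Nr2f2* was the check of the labels.

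The filter on cells (500 genes or more, 1000 UMIs or more, a mitochondrial share of 10% or less) left 5473, 4750 and 1243 of 6080, 4959 and 1441 barcodes (control, EC-iCOUP_OE replicates 1 and 2). Called doublets (266, 188 and 14, at an expected 0.8% per 1000 barcodes) were left out. Cells were clustered with Seurat 5.3.0 (2000 variable genes, 30 components, 20 neighbours, resolution 1) without the caveolae genes and related genes, and clusters were named from marker lists. Counts were summed per library and class of at least 10 cells. Classes were compared with edgeR 4.0.16 (quasi-likelihood, TMM, library as a block, all classes of one level in one fit, Benjamini-Hochberg over all genes that passed filterByExpr). A class with 1 library was assumed to vary like the others. SE is the log2 difference divided by the root of F. Genotype ratios have exact conditional 95% intervals over genes with at least 50 UMIs in 1 library, sex-linked genes left out of the background. Genes named were the 7 members, related genes that were called, and the 10 genes most correlated with *Cav1*. The edgeR test and the size rule were also run on simulated counts. Those counts held no library effects, so calls that such effects could give were not checked. Alternatives were other clustering resolutions, doublets kept, at most 5% mitochondrial UMIs, other scaling, thinned cells, DESeq2 1.42.0, no filter on low counts, other gene minimums and each library left out. The members, gene lists and tests were chosen with earlier results of these data known. The comparison of HEC with *Selp*+ PCV and the LP CapEC class at resolution 1.6 were added after seeing the data.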

Additional observations from a re-analysis of the deposited data

Results flagged for a closer look

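*Cavin2* and *Cavin3* moved in opposite directions between genotypes in different endothelial subsets, with the counting intervals of both EC-iCOUP_OE libraries clear of 0 on each side. Only the caveolae genes were screened by this rule, so the share of all genes that meet it is not known. The intervals cover counting error only, and every ratio shares the same control library. The mean log2 ratio of *Cavin2* was 1.22 in dividing EC, against -1.0 in CRP-like EC, -1.32 in *Colec12*+ EC, -0.95 in *Masp1*+ PCV, -0.74 in *Selp*+ PCV and -0.40 in *Prom1*+ EC. The dividing EC of the control library were 22 cells with a median of 10187 UMIs, against 4416.5 and 4205 in the EC-iCOUP_OE libraries, and the part of this depth was not tested. *Cavin3* had mean log2 ratios of 0.60 in *Enpp6*+ arterial-like EC and 0.44 in *Gkn3*+ arterial EC, against -0.56 in *Masp1*+ PCV and -0.60 in *Selp*+ PCV. Some of these sums were small. Replicate 2 held 10 *Cavin2* UMIs in 25 *Colec12*+ EC and 19 *Cavin3* UMIs in 13 *Masp1*+ PCV. The control library held 43 *Cavin3* UMIs in 51 *Enpp6*+ EC. These differences between subsets were not tested.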

How the results depend on the processing

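No paired analysis was possible because the control and EC-iCOUP_OE groups share fewer than 2 replicate numbers. Of 35 called gene and class pairs, 15 kept the call under every alternative. Over their 343 alternatives 303 kept it, 40 lost it and 0 changed direction, and the cause of each loss was not tested. Gene and subset pairs called lower between genotypes numbered 2, and 1 at resolution 0.6, at resolution 1.6 or with TMM, and 6 with cells thinned to 1000 UMIs, where no gene minimum applied. Pairs called higher numbered 1, and 0 with TMM or thinning. Leaving out an EC-iCOUP_OE library gave 3 to 8 pairs lower, 3 higher, and 0 to 1 member lower in mural cells. With 1 such library left the rule asks less, so these counts could only stay or rise and do not test the calls.

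The count of members called in *Bmp2*+ EC was 1, and 2 at resolution 0.6, resolution 1.6, at most 5% mitochondrial UMIs or no filter on low counts. In CRP-like EC it was 2, and 1 at resolution 1.6, where *Cavin1* and *Ehd2* lost the call and *Pacsin2* (1.23) gained it. In *Colec12*+ EC it was 3, and 5 with scaling by total UMIs. It rose from 0 to 1 in *Actg2*+ smooth muscle cells without the filter, in *Masp1*+ PCV with DESeq2 and in *Selp*+ PCV with total UMIs, and fell from 2 to 1 in mural cells at 5% mitochondrial UMIs or with DESeq2. With each library left out in turn, the counts ranged from 0 to 0 in *Bmp2*+ EC, 0 to 1 in CRP-like EC, *Masp1*+ PCV and *Selp*+ PCV, 1 to 4 in *Colec12*+ EC, 0 to 3 in lymphatic EC, 1 to 6 in lymphocyte-like cells and 0 to 2 in mural cells. The 3 fibroblast calls were kept under every alternative run. Among the mean genotype ratios of single members, 134 values moved by more than the standard deviation of the 2 EC-iCOUP_OE ratios. Leaving out 1 of those libraries cannot move a mean ratio that far. The 1 control library, the shallow replicate 2 and the single fibroblast library limit precision.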
